A study of Mus musculus with 8 samples.

Results

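The annexins are a family of cytosolic proteins that bind membranes in the presence of calcium, and transcripts of 9 of their genes were followed here in mouse heart ventricle: Anxa1, Anxa2, Anxa3, Anxa4, Anxa5, Anxa6, Anxa7, Anxa8 and Anxa11. The genes were taken from the deposited table by their symbols, and all 9 were among its 24341 genes. The list was selected on family name with earlier results of the same comparison in view, so the differences between the groups are given for these genes as a description, without p-values. Of the other annexin genes in the table, Anxa9, Anxa10 and Anxa13 are described at the end of the levels.

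Each annexin has a conserved core of repeated helical domains, which holds the calcium and attaches to acidic phospholipids such as phosphatidylserine, and an N-terminal tail that differs between members and binds partner proteins. When calcium enters a damaged cell, annexins gather at the torn membrane, and several take part in its repair, in vesicle traffic and in linking membranes to actin. In the heart Anxa2, Anxa5, Anxa6 and Anxa7 are the members most often studied, in cardiomyocytes for Anxa6 and Anxa7 and largely in non-muscle cells for Anxa2.

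The ventricles came from male mice aged 12 weeks, 4 weeks after tamoxifen, which was given in the chow. Every mouse had both copies of Med13 and of Med13l floxed. These genes encode a pair of interchangeable Mediator subunits that join its kinase module to the rest of the complex. The 4 Pos Cre libraries carried in addition a Cre recombinase that acts in cardiomyocytes, and the 4 Neg Cre libraries lacked it, so that both groups had the floxed alleles and the tamoxifen. The labels give no name or promoter for the Cre line, no group had Cre without floxed alleles, and the labels do not say whether each library came from its own animal, so the spread between libraries may be partly technical.

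Levels are in FPKM (fragments per kilobase per 1e+06 mapped), which is per length, so that genes can be set side by side. Med13 ran from 10.3 to 15.3 FPKM in Neg Cre and from 7.39 to 8.73 FPKM in Pos Cre libraries, and Med13l from 4.38 to 6.13 and from 2.35 to 2.59 FPKM, so the targeted genes followed the labels. The library size, estimated from the steps between the lowest values, was 4.52 to 23.4 in units of 1e+06 fragments. Neg Cre 2, Pos Cre 3 and Pos Cre 4 formed a set of 3 with low ribosomal precursor Rn45s (10.3 to 15.98 FPKM) and the greatest depth, while the other 5 libraries had 396 to 1053 FPKM. The library names of Neg Cre 1 and Neg Cre 2 share a stem, and the labels do not say whether they are from 1 animal. Their log2 values correlated at 0.982, where the other Neg Cre pairs ranged from 0.969 to 0.982. Neg Cre 2 also stood apart in neutrophil genes, described with the cell type markers.

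The annexin pool was larger and differently composed in Pos Cre ventricles. The 9 annexins summed to 394, 426, 381 and 407 FPKM in Neg Cre libraries 1 to 4 and to 743, 662, 679 and 646 FPKM in Pos Cre libraries 1 to 4. Every Pos Cre library was above every Neg Cre library. Anxa6 made up the largest part of the pool in Neg Cre, with 28.8% ± 1.33 of the sum against 21.4% ± 2.71 in Pos Cre (SD, n = 4 per group). The share of Anxa2 was 16.97% ± 1.59 in Neg Cre and 25.7% ± 0.972 in Pos Cre (SD, n = 4 per group). Anxa5 held 22.2% ± 2.57 and 24.8% ± 3.58 (SD, n = 4 per group), a difference smaller than the spread.

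**Figure D1:**
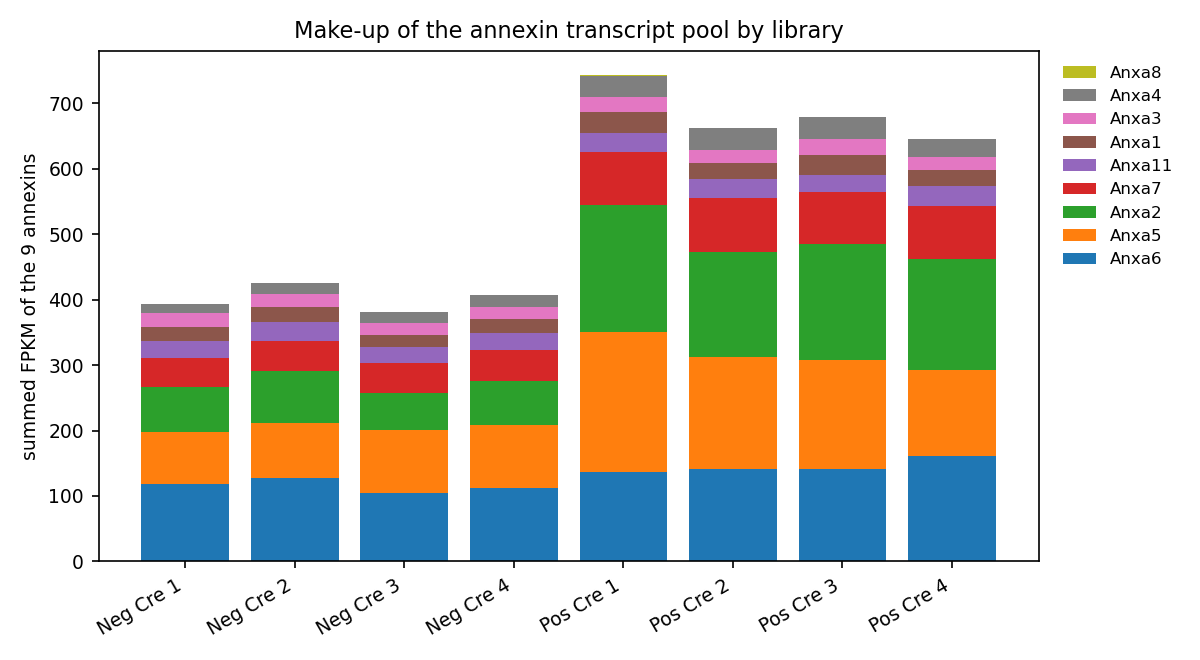
Stacked bars give the FPKM of the 9 annexin genes summed in each library, with Neg Cre libraries on the left and Pos Cre libraries on the right. The bars end at 381 to 426 FPKM in Neg Cre and at 646 to 743 FPKM in Pos Cre, and the Anxa2 segment widens from 16.97% to 25.7% of the sum on average.

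Of the 8 annexins with a mean of at least 1 FPKM, 6 had all Pos Cre libraries above all Neg Cre libraries (Anxa1, Anxa2, Anxa4, Anxa5, Anxa6 and Anxa7). Among all 11688 genes tested that pattern held for 19.3%. Since the list was drawn up with this comparison known, nothing is read from that count. The median log2 difference was 0.61 for the 8 annexins and -0.01 for all genes tested. Log2 differences here are Pos Cre minus Neg Cre on log2(FPKM + 1), with the standard error (SE) of the limma fit over all genes.

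**Figure D2:**
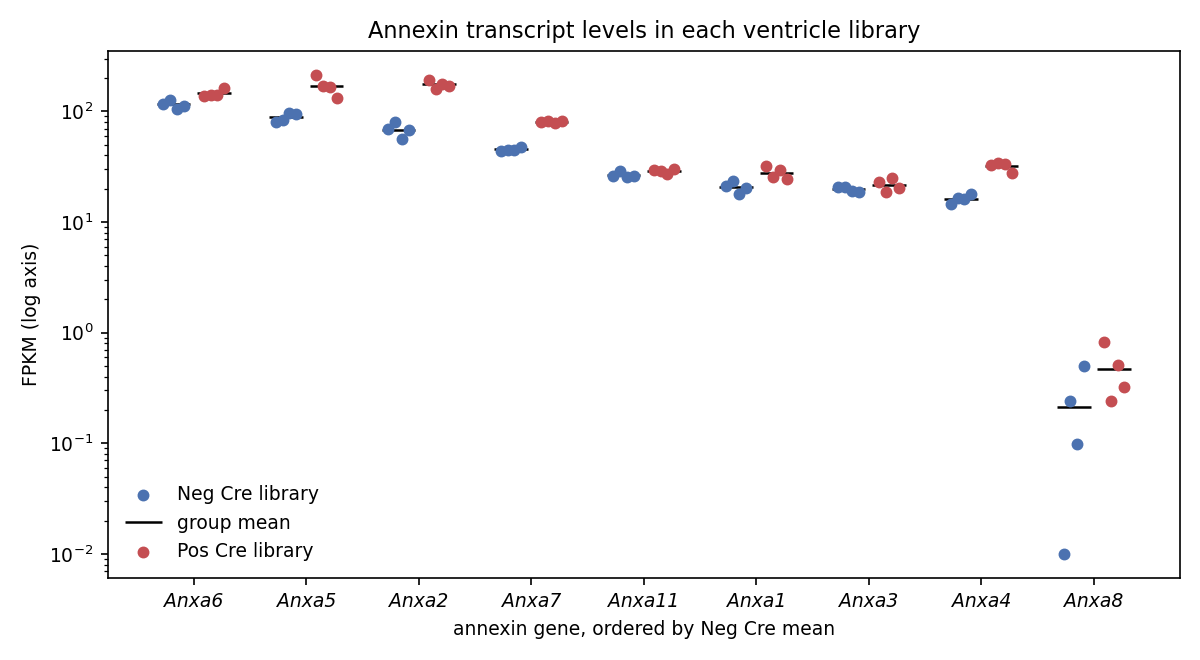
Points give FPKM on a log axis for each annexin in the 4 Neg Cre and 4 Pos Cre libraries, and bars the group means. Anxa2, Anxa4, Anxa5 and Anxa7 show clear gaps between the groups, Anxa3 and Anxa11 overlap, and Anxa8 lies under 1 FPKM in every library, with Neg Cre 1 at the table's lowest value of 0.01.

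Anxa2 had the largest difference among the annexins. Its protein joins with S100a10 into a complex that links membranes to actin and, at the cell surface, binds plasminogen and its activator. Anxa2 lies on chromosome 9 (69453683 to 69491785, mm10). Neg Cre libraries 1 to 4 had 69.2, 79.5, 56.8 and 68.2 FPKM of Anxa2, and Pos Cre libraries 1 to 4 had 193, 160.5, 178 and 169.5 FPKM. The lowest Pos Cre library was 2.02 times the highest Neg Cre library. The group means were 68.4 ± 9.30 and 175 ± 13.8 FPKM (SD, n = 4 per group), a log2 difference of 1.35 with an SE of 0.11. That difference exceeded those of 98.5% of the genes tested. It came to 1.43 among the 5 libraries with high Rn45s and 1.12 among the 3 with low Rn45s. For this and every other gene, Neg Cre 2 is the only control of the low-Rn45s set.

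Anxa5 is the phosphatidylserine-binding annexin used as a probe for dying cells, and it can also form a lattice on membranes. Anxa5 lies on chromosome 3 (36448924 to 36475887, mm10). Neg Cre libraries 1 to 4 had 80.5, 84.3, 96.4 and 95.0 FPKM of Anxa5, and Pos Cre libraries 1 to 4 had 215, 171, 165 and 131 FPKM. Pos Cre values were spread most widely for this gene, with Pos Cre 1 highest and Pos Cre 4 lowest, yet the groups did not overlap. The means were 89.1 ± 7.88 and 170.3 ± 34.4 FPKM (SD, n = 4 per group), and the log2 difference was 0.91 with an SE of 0.13. Leaving out single libraries moved it between 0.79 and 1.03.

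Anxa4 is a smaller annexin that has been linked to the control of adenylyl cyclase in heart muscle. Anxa4 lies on chromosome 6 (86736840 to 86793584, mm10). Neg Cre libraries 1 to 4 had 14.6, 16.5, 16.002 and 17.8 FPKM of Anxa4, and Pos Cre libraries 1 to 4 had 32.9, 34.1, 33.3 and 28.0 FPKM. Pos Cre 4 was the lowest of its group and still 1.57 times the highest Neg Cre library. The means were 16.2 ± 1.34 and 32.1 ± 2.79 FPKM (SD, n = 4 per group), a log2 difference of 0.94 with an SE of 0.09.

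Anxa7, also called synexin, has a long tail that binds the calcium sensor sorcin (Sri). Anxa7 lies on chromosome 14 (20455261 to 20480133, mm10). Neg Cre libraries 1 to 4 had 44.2, 44.7, 44.9 and 47.6 FPKM of Anxa7, and Pos Cre libraries 1 to 4 had 80.8, 81.9, 78.4 and 81.4 FPKM. It was the tightest of the annexins, with an SD of 3.35% of the mean in Neg Cre and 1.90% in Pos Cre. The means were 45.3 ± 1.52 and 80.6 ± 1.53 FPKM (SD, n = 4 per group), a log2 difference of 0.82 with an SE of 0.06. High-Rn45s and low-Rn45s libraries gave the same difference of 0.82, the latter with Neg Cre 2 as the only control.

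Anxa6 and Anxa1 had smaller gaps. Anxa6, whose protein carries the annexin core in tandem and is abundant in heart muscle, lies on chromosome 11 (54978962 to 55033471, mm10). It stood at 118, 128, 105 and 113 FPKM in Neg Cre libraries 1 to 4 and at 137, 142, 142 and 161 FPKM in Pos Cre libraries 1 to 4. The lowest Pos Cre library was 1.07 times the highest Neg Cre library, and the means were 116 ± 9.55 and 145 ± 10.9 FPKM (SD, n = 4 per group). The Anxa6 log2 difference was 0.33 with an SE of 0.08. Anxa1, the glucocorticoid-induced annexin that restrains inflammation through formyl peptide receptors, lies on chromosome 19 (20373434 to 20390671, mm10). In Neg Cre libraries 1 to 4 Anxa1 had 21.2, 23.5, 17.9 and 20.5 FPKM, and in Pos Cre libraries 1 to 4 it had 32.1, 25.6, 29.8 and 24.3 FPKM. Neg Cre 2 and Pos Cre 4 nearly met, at a ratio of 1.04. Its means were 20.8 ± 2.29 and 28.0 ± 3.64 FPKM (SD, n = 4 per group). The Anxa1 log2 difference was 0.41 with an SE of 0.11, and it was 0.51 in high-Rn45s and 0.19 in low-Rn45s libraries.

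Anxa3 and Anxa11 overlapped between the groups on the deposited scale. Anxa3, an annexin much studied in neutrophils, lies on chromosome 5 (96793385 to 96845968, mm10). In Neg Cre libraries 1 to 4 Anxa3 had 20.8, 20.6, 19.0 and 18.6 FPKM, and in Pos Cre libraries 1 to 4 it had 23.0, 18.7, 24.8 and 20.1 FPKM. Pos Cre 2 lay beneath 3 of the Neg Cre libraries. Anxa11, whose long tail binds S100a6 and the sensor Pdcd6 and tethers RNA granules to lysosomes, lies on chromosome 14 (25842155 to 25886804, mm10). In Neg Cre libraries 1 to 4 Anxa11 had 25.9, 29.1, 25.3 and 26.0 FPKM, and in Pos Cre libraries 1 to 4 it had 29.3, 29.1, 27.3 and 29.98 FPKM. The means were 19.7 ± 1.11 and 21.6 ± 2.73 FPKM for Anxa3, and 26.6 ± 1.70 and 28.9 ± 1.16 FPKM for Anxa11 (SD, n = 4 per group). The log2 differences were 0.12 with an SE of 0.10 for Anxa3 and 0.12 with an SE of 0.07 for Anxa11. For Anxa11 the sign turned in the 3 low-Rn45s libraries (-0.02), where Neg Cre 2 is the only control.

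Anxa8, best known from epithelia, was near the limit of what these libraries can show. Its values were 0.01, 0.239, 0.0991 and 0.504 FPKM in Neg Cre libraries 1 to 4 and 0.817, 0.243, 0.509 and 0.324 FPKM in Pos Cre libraries 1 to 4. By the estimated library sizes and a transcript of 1880 bases, the values above the lowest rest on 1.02 to 22.4 fragments, so the groups, which overlap, could not be told apart at this depth. The table gives Anxa8 the locus of chromosome 14, 34051130 to 34102754 (mm10), which it shares with the gene A630023A22Rik of the opposite strand. That gene stood at 0.0336 FPKM or less. Anxa1, Anxa2, Anxa4 and Anxa11 also overlap annotated genes of the opposite strand, and whether the counting used strand is not known here, so reads of such partners could be included in their values. The opposite-strand gene at Anxa1, 1500015L24Rik, was listed at 0.01 FPKM in every library. Those at Anxa2, Anxa4 and Anxa11 have no entry of their own. The other 8 annexins rested on at least 163 fragments in every library, where counting alone gives an error of up to 7.84% per value. These limits cover counting error only.

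The remaining annexin genes of the table were as low as Anxa8. Anxa9 ranged from 0.0976 to 0.577 FPKM in Neg Cre and from 0.01 to 0.431 FPKM in Pos Cre libraries. Anxa13 ranged from 0.299 to 0.759 and from 0.184 to 0.366 FPKM. Anxa10 was listed at 0.01 FPKM in 6 libraries and at 0.0234 and 0.0245 FPKM in Pos Cre 3 and 4, each equal to about 1 fragment. None of the 3 was tested.

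The order of the annexins by level changed at the top. In Neg Cre it ran Anxa6, Anxa5, Anxa2, Anxa7, Anxa11, Anxa1, Anxa3, Anxa4, Anxa8, and each gene's 4 libraries lay above those of the next, except for Anxa1 and Anxa3, whose ranges overlapped. In Pos Cre it ran Anxa2, Anxa5, Anxa6, Anxa7, Anxa4, Anxa11, Anxa1, Anxa3, Anxa8. There Anxa2 was above Anxa5 in 2 of 4 libraries and Anxa5 above Anxa6 in 3 of 4, so neither pair of neighbours differed beyond the spread, although Anxa2 was above Anxa6 in every library. Anxa7 stood next below the first 3 in both groups and apart from its neighbours. In rank Anxa4 moved from next above Anxa8, with Neg Cre means of 16.2 and 0.213 FPKM, to a place beside Anxa11 in Pos Cre. There its range overlapped with that of Anxa11.

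The scale of the values bears on the size of each difference. Without 1386 genes of ribosomal RNA, ribosomal proteins and small RNAs, Neg Cre libraries summed to 496785 to 542452 FPKM and Pos Cre libraries to 413813 to 427940 FPKM. Scaling every library to the same such sum moved the median log2 difference of all genes from -0.01 to 0.26. It multiplied all genes of a library alike, by 0.866 to 0.946 in Neg Cre and by 1.10 to 1.14 in Pos Cre. On that scale the calls over all genes were 5343 higher and 1035 lower, in place of 2307 and 2269. The annexin differences became 1.66 for Anxa2, 1.24 for Anxa4, 1.22 for Anxa5, 1.12 for Anxa7, 0.70 for Anxa1, 0.63 for Anxa6 and 0.42 for both Anxa3 and Anxa11. Their median was 0.91. Anxa3 and Anxa11 did not overlap on that scale. Anxa3 reached 18.5 in Neg Cre and was at least 20.6 in Pos Cre, and Anxa11 reached 25.2 and was at least 30.3. After quantile normalization the median log2 difference was 0.64 for the 8 annexins and -0.01 for all genes tested.

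**Figure D3:**
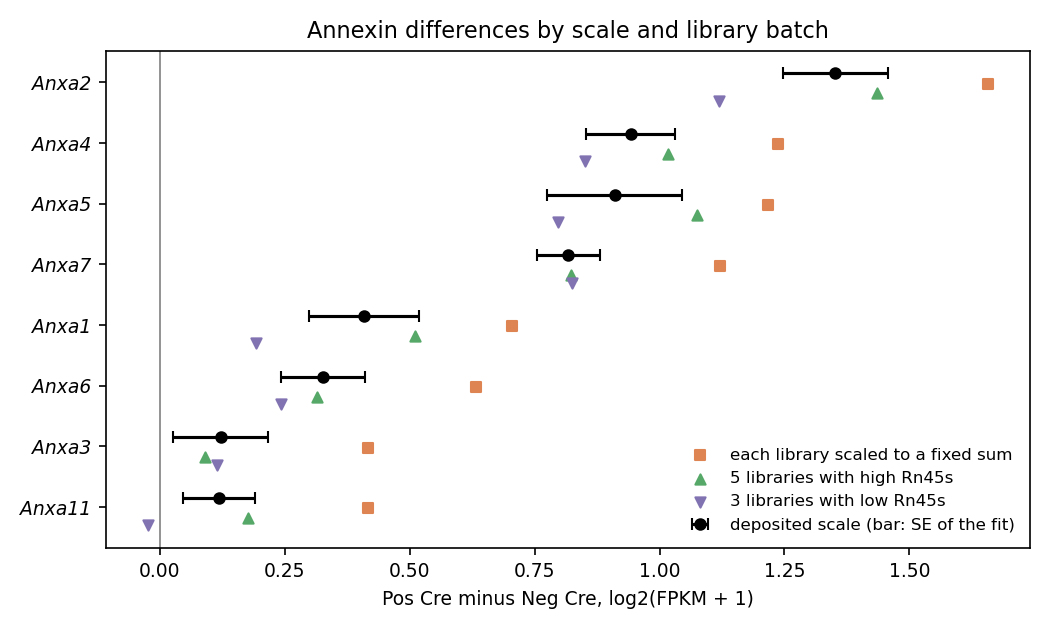
Each row is an annexin, and the x axis gives Pos Cre minus Neg Cre on log2(FPKM + 1). Black points with SE bars are on the deposited scale, squares on the fixed-sum scale, and triangles come from the 5 high-Rn45s and 3 low-Rn45s libraries. Anxa2 lies farthest right at 1.35 on the deposited scale, and only Anxa11 crosses 0, in the low-Rn45s libraries.

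Promoter sequences were looked up for the annexins, since 4 of them stood together at a log2 difference above 0.8 while Anxa11 did not. RefSeq windows (GRCm38) were held for 7 of the 9 symbols, not for Anxa3 and Anxa6. The 100 bases before the start that equals the table's gene start are printed 5′ to 3′ on the gene's strand. They are given for Anxa2, Anxa4, Anxa5 and Anxa7, which had the largest differences, and for Anxa1. Anxa11 is added as a gene whose groups overlapped on the deposited scale. Capitals mark matches to any of 7 motifs on either strand.
Anxa2, chr9:69453583-69453682, plus strand: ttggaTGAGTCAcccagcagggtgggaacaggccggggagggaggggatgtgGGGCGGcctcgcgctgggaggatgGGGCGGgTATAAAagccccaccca
Anxa4, chr6:86793585-86793684, minus strand: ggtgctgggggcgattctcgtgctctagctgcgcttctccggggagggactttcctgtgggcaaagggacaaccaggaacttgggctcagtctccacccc
Anxa5, chr3:36475888-36475987, minus strand: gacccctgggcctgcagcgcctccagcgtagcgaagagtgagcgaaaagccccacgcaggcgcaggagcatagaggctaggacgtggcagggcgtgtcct
Anxa7, chr14:20480134-20480233, minus strand: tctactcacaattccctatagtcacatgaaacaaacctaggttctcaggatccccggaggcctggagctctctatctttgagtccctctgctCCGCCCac
Anxa1, chr19:20390672-20390771, minus strand: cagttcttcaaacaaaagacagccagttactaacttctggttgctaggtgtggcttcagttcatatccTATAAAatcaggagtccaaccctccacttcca
Anxa11, chr14:25842055-25842154, plus strand: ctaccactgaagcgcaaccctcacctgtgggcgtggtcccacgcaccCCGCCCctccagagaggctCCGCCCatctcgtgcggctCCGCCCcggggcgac

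The motifs were searched on both strands of the 250 bases before each start. They were TATAAA as the TATA box and GGGCGG as the GC box. The remaining motifs were CCAAT, the AP-1 site TGANTCA, the TEAD site written GGAATG, the E-box with the letters CACGTG, and the SRF CArG box. The Anxa2 window held a TATA box 17 bases before the start, 3 GC boxes and 1 AP-1 site, whose first base lies 95 bases before the start. GENCODE starts Anxa2 farther upstream, at 69453620, so this TATA match lies within its annotated span. An AP-1 match is present in 6.75% of the 32851 promoter windows of that length, a TATA box in 12.4% and a GC box in 32.7%. Anxa1 held a TATA box 32 bases before its start and a TEAD match 236 bases before it, the latter present in 12.6% of windows. Anxa11 held 3 GC boxes and Anxa7 held 1. An overlapping window of a second Anxa7 start held that same GC box, 3 more and an E-box (6.02% of windows). The Anxa4, Anxa5 and Anxa8 windows held none of the 7, and no annexin window held CCAAT (33.8% of windows) or a CArG box (1.47%). No motif of this set was thus common to all of Anxa2, Anxa4, Anxa5 and Anxa7, though Anxa2 and Anxa7 both held a GC box. A match says only that the letters are there.

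The calcium-binding S100 proteins, several of which dock on annexin tails, were tested gene by gene, and 5 of the 9 tested rose. A gene is called, here and in the lists that follow, at a limma adjusted p under 0.05. Of all genes tested 19.7% were called higher and 39.2% in either direction, and these shares stand beside each list's count. The lists too were chosen with earlier results of these data known, so their counts and p-values are a description. By limma 0 S100 genes fell, and 1 (S100a1) was lower at an unadjusted p under 0.05. Their median log2 difference was 0.35. S100a8 and S100a9, which are also on the neutrophil marker list, did not pass the test. They reached 32.0 and 37.8 FPKM in Neg Cre 2, and neither was above 2.43 FPKM in a Pos Cre library. S100a11, the partner of Anxa1, rose from a mean of 21.9 ± 2.64 FPKM in Neg Cre to 50.1 ± 20.8 FPKM in Pos Cre (SD, with n = 4 in both). The log2 difference was 1.08 (SE 0.23, limma adjusted p = 0.00386). Its Pos Cre libraries 1 to 4 stood at 78.8, 51.7, 37.3 and 32.5 FPKM, all above the highest Neg Cre library at 25.6 FPKM. S100a4, linked to fibroblasts and cell movement, rose from 20.5 ± 3.02 to 40.4 ± 3.20 FPKM, and S100a13, a secretion cofactor, from 39.8 ± 3.04 to 74.5 ± 11.1 FPKM. S100a6, the partner of Anxa11, rose from 45.8 ± 2.80 to 66.1 ± 6.65 FPKM (log2 difference 0.52, limma adjusted p = 0.00101).

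S100a10, the partner of Anxa2, rose less than Anxa2 differed. It stood at 77.8, 72.3, 71.3 and 75.3 FPKM in Neg Cre libraries 1 to 4 and at 113, 88.5, 81.2 and 91.8 FPKM in Pos Cre libraries 1 to 4, with Pos Cre 1 apart at the top. The log2 difference was 0.32 (SE 0.10, limma adjusted p = 0.0260). The call was lost in 5 of 19 other settings, in which adjusted p ran from 5.74e-04 to 0.0798: without a filter on low values, with sample weights, and without Neg Cre 3, Neg Cre 4 or Pos Cre 4. The FPKM ratio of Anxa2 to S100a10 was 0.923 ± 0.128 in Neg Cre and 1.89 ± 0.213 in Pos Cre, without overlap. For the S100 partners of Anxa1 and Anxa11 the ratio was lower in Pos Cre, at 0.958 ± 0.130 and 0.612 ± 0.191 for Anxa1 to S100a11 and at 0.581 ± 0.00368 and 0.441 ± 0.0526 for Anxa11 to S100a6 (SD, n = 4 per group), again without overlap. Ratios of FPKM compare transcripts per length, not proteins.

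Penta-EF-hand proteins, calcium sensors that include annexin partners and calpains, rose in 4 of 7 cases, with a median of 0.40, and by limma 0 fell, also at an unadjusted p under 0.05. Sri, which binds Anxa7, rose from 18.2 ± 2.35 to 24.4 ± 2.83 FPKM (log2 difference 0.40, limma adjusted p = 0.0143). Capns1, the small calpain subunit, rose from 203 ± 16.3 to 307 ± 26.2 FPKM, Capn2, a catalytic calpain subunit, from 36.1 ± 1.89 to 49.2 ± 3.59 FPKM and Pef1 from 14.7 ± 3.17 to 21.9 ± 2.30 FPKM. Pdcd6, which binds Anxa11, had means of 28.4 ± 5.28 FPKM in Neg Cre and 29.4 ± 1.59 FPKM in Pos Cre, and it did not pass the test (limma adjusted p = 0.705). Sri and Pef1 were no longer called without a filter on low values (adjusted p = 0.0568 and 0.0560, over ranges of 3.60e-04 to 0.0568 and 2.90e-04 to 0.0560 in 19 settings). The ratio of Anxa7 to Sri was 2.51 ± 0.284 in Neg Cre and 3.33 ± 0.344 in Pos Cre, with overlap.

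Other proteins that meet calcium and phospholipid through C2 domains, the ferlins and copines, had 2 of 6 tested genes rise. By limma 0 fell, also at an unadjusted p under 0.05. Cpne2, a copine, rose from 1.79 ± 0.272 to 7.72 ± 0.721 FPKM (log2 difference 1.65, limma adjusted p = 2.07e-06). Myof, a ferlin of membrane repair in muscle precursors and endothelium, rose from 2.84 ± 0.378 to 5.76 ± 1.22 FPKM (0.80, limma adjusted p = 9.89e-04). The median of the 6 was 0.30. Both called genes have means under 5 FPKM over the 8 libraries, so a filter at that level left 0 called.

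Caveolae and the membrane repair machinery moved both ways. Of 19 genes 6 rose and 4 fell, at a median of -0.09. Cav1 and Cav2, caveolins found mainly outside muscle fibres, both fell: Cav1 from 191 ± 10.5 to 130.0 ± 4.78 FPKM (limma adjusted p = 1.47e-04), and Cav2 from 30.2 ± 2.58 to 19.6 ± 1.60 FPKM (4.11e-04). Trim72, the muscle repair protein MG53, fell from 113 ± 16.1 to 78.7 ± 8.35 FPKM (limma adjusted p = 0.00496), but not on the fixed-sum scale (adjusted p = 0.0953, the highest of 19 settings from 4.51e-04). Ehd3, a membrane-shaping ATPase, rose from 1.51 ± 0.231 to 2.62 ± 0.679 FPKM (limma adjusted p = 0.0137), though not without a filter on low values (0.0555, the highest of 18 settings from 0.00155).

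Some scramblases and P4-ATPases move phosphatidylserine between membrane leaflets, which sets the surface Anxa5 binds. Genes of these families and related genes had 3 of 13 higher and 2 lower at a median of 0.05. These counts were close to the 19.7% higher and 39.2% in either direction over all genes. The scramblase family gene Plscr1 rose from 7.66 ± 2.11 to 13.4 ± 1.87 FPKM (limma adjusted p = 0.00559). The P4-ATPase genes Atp8a2 and Atp8b2 rose from 4.17 ± 1.08 to 6.93 ± 0.785 FPKM and from 5.35 ± 0.236 to 8.36 ± 1.19 FPKM, of which Atp8a2 was not called in the high-Rn45s libraries alone (adjusted p = 0.142, the highest of 19 settings from 4.77e-04). The flippase Atp8a1 fell from 12.7 ± 2.19 to 9.93 ± 0.504 FPKM (limma adjusted p = 0.0442), a call lost in 11 of 19 settings (0.0213 to 0.853), among them leaving out Neg Cre 1, Neg Cre 3 or any Pos Cre library.

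In the plasminogen system, which meets Anxa2 at the cell surface, 2 of 6 genes rose, and by limma 0 fell, also at an unadjusted p under 0.05. Serpine2, a protease inhibitor, rose from 16.5 ± 2.52 to 23.4 ± 1.28 FPKM (log2 difference 0.49, limma adjusted p = 0.00457). The call of Serpine2 was lost in the high-Rn45s libraries alone (adjusted p = 0.0540, the highest of 19 settings from 7.00e-05). The median of the list was -0.03. Among formyl peptide receptors, which Anxa1 engages, and phospholipases A2, which annexins can restrain, 1 of 6 tested genes rose and 2 fell, at a median of -0.07. The cytosolic Pla2g4a rose from 2.84 ± 0.203 to 4.19 ± 0.565 FPKM, by limma at an adjusted p of 0.00632. The secreted Pla2g5 fell from 28.3 ± 2.63 to 17.7 ± 2.50 FPKM (0.00102), and Pla2g12a, also secreted, from 26.9 ± 2.24 to 16.6 ± 1.22 FPKM (1.57e-04). The receptors Fpr1, Fpr2 and Fpr3 were at 0.410 FPKM or less in each library and were not tested.

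**Figure D4:**
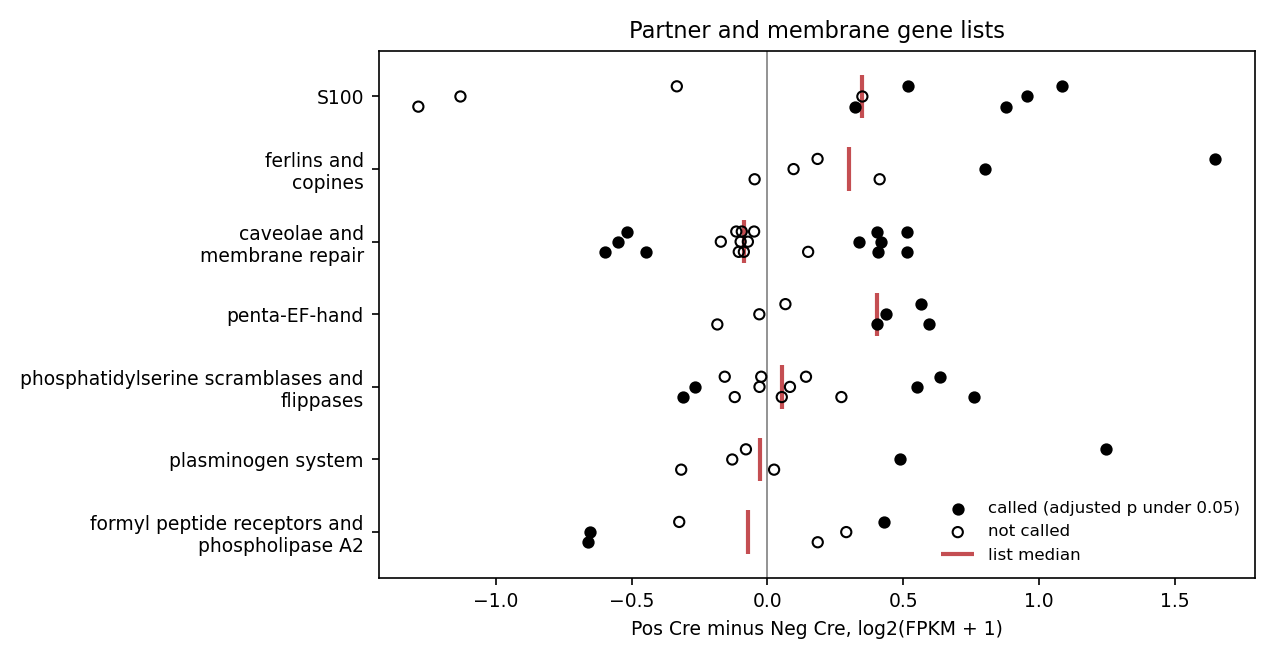
Points give the Pos Cre minus Neg Cre difference on log2(FPKM + 1) of each tested gene in 7 lists, filled where the limma adjusted p was under 0.05, and red bars give list medians. S100 and penta-EF-hand genes lie mostly to the right, with medians of 0.35 and 0.40, and the caveolae, scramblase, plasminogen and phospholipase lists lie on both sides of 0.

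The libraries come from whole ventricle, in which a change in the number of cells of a type and a change in RNA per cell cannot be told apart. All 8 cardiomyocyte markers were abundant in each library, among them Myl2, the ventricular myosin light chain, at 6622 FPKM or more. No atrial marker was examined. The cardiomyocyte markers summed to 53694 to 59109 FPKM in Neg Cre and 18888 to 20568 FPKM in Pos Cre, with a lower mean for 8 of 8. They did not fall alike. Actn2 had means of 722 and 716 FPKM with overlapping ranges, and Ryr2 had means of 303 and 38.2 FPKM. Fibroblast markers summed to 549 to 637 and 729.8 to 826 FPKM, with 7 of 8 higher in mean and Dpt lower. Smooth muscle and pericyte markers summed to 462 to 604 and 929 to 1375 FPKM, with 4 of 8 higher in mean (Acta2, Tagln, Cnn1 and Cspg4). Acta2 carried most of the difference in the sum, with means of 194 and 779 FPKM, while Myh11, Smtn, Rgs5 and Kcnj8 were lower in mean. Endothelial markers were lower, at 1309 to 1430 and 852 to 982 FPKM, and so were macrophage markers, at 272 to 339 and 168 to 240 FPKM, with a lower mean for 8 of 8 in both lists. Fabp4 carried most of the difference in the endothelial sum, with means of 972 and 615 FPKM. Pecam1, Cdh5, Tie1, Emcn and Egfl7 overlapped between the groups. None of the markers in these 5 lists was under 1 FPKM in all libraries. Epicardial and mesothelial markers summed to 2.93 to 5.39 and 3.49 to 5.47 FPKM, with 6 of 8 under 1 FPKM in every library.

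Neutrophil markers, of which 7 of 8 were in the table, summed to 75.3 FPKM in Neg Cre 2 and to 2.03 to 7.33 FPKM in the other 7 libraries, with Mmp8 and Camp under 1 FPKM throughout. Neg Cre 2 also had the highest Neg Cre levels of Anxa1, Anxa2, Anxa6 and Anxa11. Other annexins peaked elsewhere in that group: Anxa3 in Neg Cre 1, Anxa5 in Neg Cre 3, and Anxa4 and Anxa7 in Neg Cre 4. Without Neg Cre 2 the log2 difference was 0.47 for Anxa1, 1.43 for Anxa2, 0.37 for Anxa6 and 0.16 for Anxa11. The parts of the marker levels in the annexin differences were not tested.

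**Figure D5:**
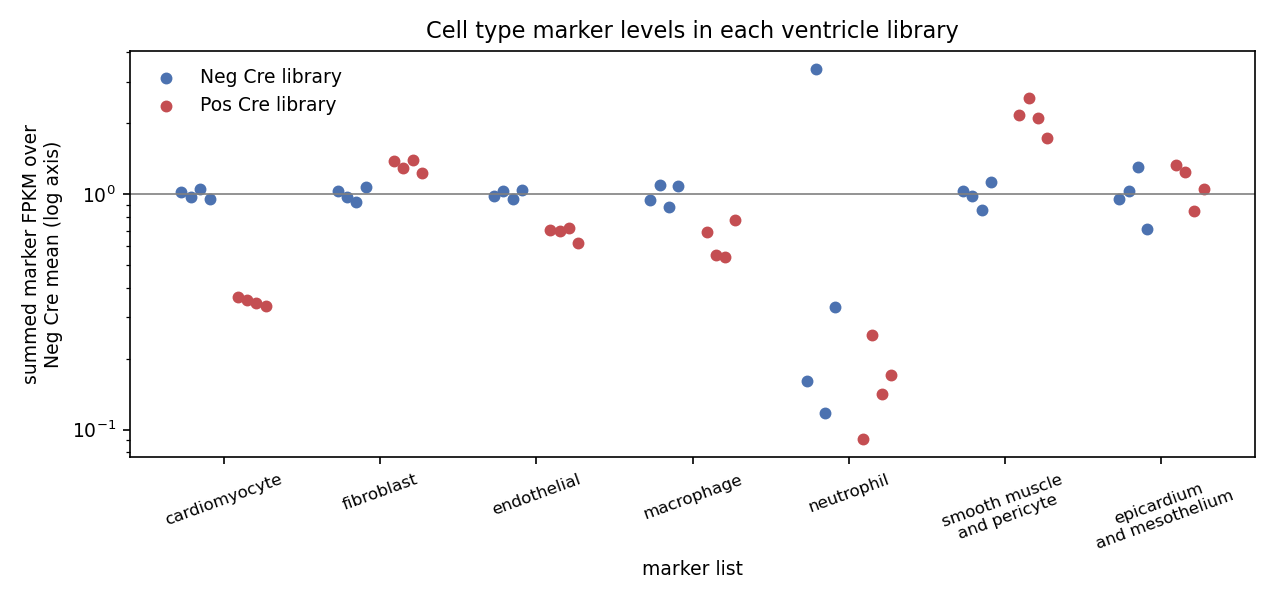
For each cell type list, points give the summed FPKM of its markers in a library divided by the Neg Cre mean, on a log axis. Cardiomyocyte, endothelial and macrophage sums are lower and fibroblast and smooth muscle sums higher in all Pos Cre libraries, the latter mostly through Acta2, and Neg Cre 2 stands alone at the top of the neutrophil list with 75.3 FPKM.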

How the data were processed

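RNA of ventricular lysates was sequenced in 8 libraries, 4 per group, from stranded total RNA depleted of ribosomal RNA, per the labels' protocols. The authors deposited FPKM for each gene, made with Bowtie2 2.2.6 and Cufflinks on mm10, per the submitters' processing notes. For aligner settings, annotation and strand use: not given in the sources used here. In 6 cells of 3 genes a word replaced the number and was taken as missing, and the lowest value is 0.01. Coordinates are the table's loci with the start moved by 1, after which 11866 starts equalled RefSeq's.

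Library size was estimated from the FPKM of 3664 genes with 1 GENCODE M21 transcript of 500 to 4000 bases, whose lowest values cluster at 1, 2 and 3 fragments. Of estimates under 4.5 fragments, 70.5% to 74.1% lay within 0.15 of a whole number. A total of 11688 genes reached a mean of 1 FPKM. Their log2(FPKM + 1) values entered limma (version 3.58.1, R 4.3.3) with a variance trend, Pos Cre against Neg Cre. Genes were called at a Benjamini-Hochberg adjusted p under 0.05. The fit was tested on 5 simulated tables with independent values, few changed genes and no batch. Such tables cannot show how the fit fares where many genes differ. The libraries were set apart by Rn45s at 100 FPKM.

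The members and the gene lists were chosen with earlier results of these data known. Named partners are the known partners of Anxa1, Anxa2, Anxa7 and Anxa11 and, per list, up to 4 called genes with the largest difference. S100a1, S100a8, S100a9 and the Fpr genes were named after their values were seen. A single gene that the rule names is not reported here. Alternatives covered pseudocount, filter, scaling, variance model, library batch, replicate number and leaving out each library.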

Additional observations from a re-analysis of the deposited data

Results flagged for a closer look

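In 88 groups of 4 libraries, the highest or lowest library was compared with its nearest neighbour, and in 5 the gap, as a part of the group's range, was above Dixon's critical value, where chance marks about 1 in 20 groups. Anxa9 stood at 0.577 FPKM in Neg Cre 3, with the next Neg Cre library at 0.156 FPKM. S100a6 stood at 49.9 FPKM in Neg Cre 2 against 44.8 FPKM in the next. Capns1 stood at 346 FPKM in Pos Cre 1 against 297 FPKM in the next. The endothelial marker sum was 852 FPKM in Pos Cre 4, with the next Pos Cre library at 961 FPKM. The neutrophil marker sum was 75.3 FPKM in Neg Cre 2, with the next Neg Cre library at 7.33 FPKM.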

How the results depend on the processing

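Over 20 other settings the log2 difference was positive for Anxa1 (0.19 to 0.70), Anxa2 (1.12 to 1.66), Anxa3 (0.06 to 0.42), Anxa4 (0.85 to 1.24), Anxa5 (0.79 to 1.22), Anxa6 (0.24 to 0.63) and Anxa7 (0.81 to 1.12), and for Anxa11 it ran from -0.02 in the low-Rn45s libraries to 0.42. Scaling to a fixed sum gave 5343 genes called higher and 1035 lower over all genes, 5 ferlins and copines higher, 2 caveolae and repair genes lower, 7 scramblases and flippases higher and 0 lower, and 3 phospholipase and receptor genes higher, and it turned the Atp11a log2 difference to 0.0285. Without a filter 2 penta-EF-hand genes were called higher and 1 scramblase or flippase lower. A minimum of 5 FPKM left 0 ferlins and copines and 0 phospholipase genes higher, since fewer genes were tested. Sample weights gave 1 S100 gene lower and 2 phospholipase genes higher. With the Rn45s batch as a term, 5 scramblases and flippases were higher and 1 lower, and in the high-Rn45s libraries alone 1 was lower and 1 plasminogen gene was higher. Leaving out single libraries gave 0 to 2 scramblases and flippases lower (1 without Neg Cre 1 or Pos Cre 4, and 0 without Pos Cre 1, 2 or 3), 1 to 2 phospholipase genes higher (2 without Neg Cre 3), 0 to 1 S100 genes lower (1 without Pos Cre 1) and 0 to 1 plasminogen genes lower (1 without Pos Cre 4). These settings include averaging Neg Cre 1 and 2, an alternative added after the data were seen. Scaling to a fixed sum raised all Pos Cre values and lowered all Neg Cre values by construction. Apart from that shift and the 5 FPKM minimum, the cause of these changes was not tested.

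Same-numbered libraries did not deviate together once group means were removed (correlations of -0.0872, -0.162, -0.126 and -0.0776). With 4 libraries per group these values cannot show whether the libraries were paired. With the replicate block 1963 genes were called higher and 1899 lower, 0 scramblases and flippases lower and 1 plasminogen gene lower. Depth limits Anxa8, Anxa9, Anxa10 and Anxa13, since a count of 0 allows up to 3 fragments, or 0.0641 to 0.332 FPKM for a transcript of 2 kb.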

Other observations

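With group means removed, annexins did not vary as one block over the 8 libraries. The closest pair was Anxa1 and Anxa2 (Pearson r = 0.89), followed by Anxa1 with Anxa3 (0.74) and Anxa6 with Anxa11 (0.73), while Anxa5 and Anxa6 ran opposite (-0.79). In Pos Cre 1, where Anxa5 was highest, Anxa6 was lowest of its group, and in Pos Cre 4 the order was the reverse. These pairs were picked from 28 after their values were seen, share libraries and depth, and are a description of 8 libraries. Anxa6 had the highest mean over all libraries, and the 5 genes whose levels followed it most closely without removing group means were Bax, Ppp1r14b, Rrp7a, Tspan4 and Ifrd1 (r = 0.99, 0.99, 0.98, 0.98 and 0.98). Among the annexins Anxa2 came nearest to Anxa6, at 0.89. With group means removed, Anxa2 stood at 0.49 and Anxa11 came nearest, at 0.73. The 5 genes are the highest among the genes tested, over 8 libraries, and nothing is read from them.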
